A study of Mus musculus with 7 samples.

Results

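Leukocyte integrins and their ligand ICAM-1 were examined in the RNA of bone marrow-derived dendritic cells (BMDCs). The genes were chosen by symbol: the alpha chains Itgal, Itgam, Itgax, Itgae, Itga4 and Itgav, the beta chains Itgb2, Itgb7 and Itgb5, and Icam1. These are 10 of the 28666 genes of the deposited table, and each symbol matched 1 gene. Bone marrow of female C57BL/6 mice aged 6 to 8 weeks was cultured for 7 days with 20 ng/mL GM-CSF and 10 ng/mL IL-4, cytokines that drive dendritic cell growth. MC38 cells, a mouse colon adenocarcinoma line, shared a Transwell system with these cultures. Sorting by flow cytometry gave an immature group (3 libraries) and a mature group (4 libraries) of BMDCs. The study's text gives 24 h of the glutamine antagonist DON before the sort, while a figure legend names DMSO or DON at 5 µM. For its co-cultures, the study also describes a lower glutamine level with DMSO and added glutamine with DON. The sample labels give the maturation stage and no treatment, so a difference in treatment between the groups was not tested. The study's methods speak in general of independent biological experiments, but the labels do not tie these replicates to separate cultures or animals. The p-values measure the spread between these libraries, whatever its source. Total counts per library were 57359581 to 67973086 in the immature group and 54846746 to 62285010 in the mature group.

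Integrins are adhesion receptors built from an alpha and a beta chain, and both chains are needed at the cell surface. Chains with β2 as partner are found on leukocytes and bind ICAM-1, complement fragments and matrix proteins, while chains with β7 guide cells to gut and epithelium and αv chains bind matrix. In dendritic cells, these receptors take part in migration, in uptake of dead cells and opsonized particles, and in contact with T cells, which bind ICAM-1 through their own β2 integrins.

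Expression is given as CPM after TMM normalization of the library totals, for changes of 1 gene, and as FPKM, fragments scaled by gene length and library size, for levels of different genes. A gene is said to have risen or fallen where the adjusted p of edgeR's quasi-likelihood test with Benjamini-Hochberg adjustment over 17461 genes was under 0.05. The study's criteria also ask for a log2 fold change of 1 or more in size. All 10 members passed the filter on low counts. By adjusted p, 10 of the 10 members changed, beside 46.1% of all tested genes. Of these, 4 rose, beside 23.2% of tested genes, and 6 fell, beside 22.9%. The study's criteria were passed by 7 members, beside 23.1% of tested genes. Icam1 and Itgae passed them as higher in mature BMDCs, beside 13.2% of tested genes, and Itgam, Itgb7, Itgb2, Itgb5 and Itgal as lower, beside 9.95%. For 8 members, no mature library fell within the range of the immature ones, beside 52.1% of tested genes. The median log2 fold change was -0.99 over the 10 members and 0.05 over all tested genes, with quartiles of -0.48 and 0.67. The members, and the gene lists further on, were chosen with earlier results of these data known. Their shares beside those of all tested genes are thus description and no test.

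**Figure D1:**
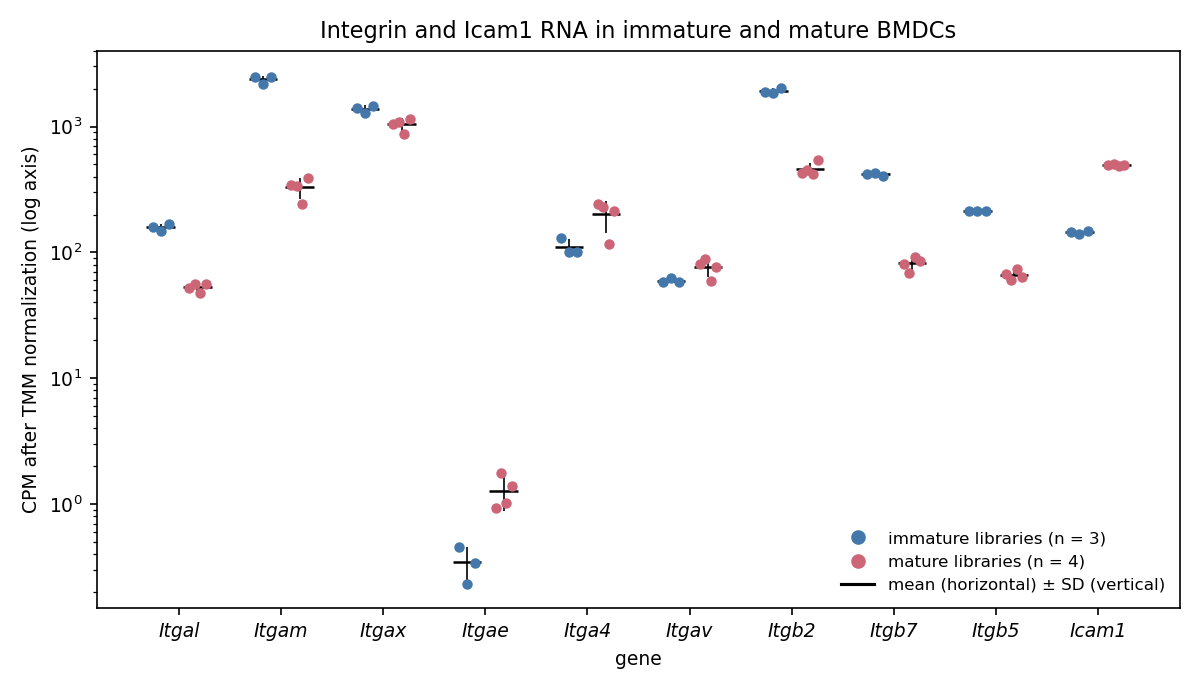
CPM after TMM normalization (log axis) of the 10 genes in each immature (n = 3) and mature (n = 4) library, with each group's mean and SD. Itgam, Itgb2, Itgb7, Itgb5 and Itgal lie lower in every mature library and Icam1 and Itgae higher, while mature replicate 3 lies within the immature range for Itga4 and Itgav.

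Some libraries stood apart within the mature group. In mature replicate 3, the log2 ratio of CPM to the other mature libraries fell with gene length across genes, with a Spearman's rho of -0.37 over 17436 genes, which are not independent replicates. Its median log2 ratio was -0.46 for the 1323 genes of at least 10000 bases of exon and 0.03 for all of them. The log2 ratio was -0.96 for Itga4 and -0.46 for Itgav, which with 13978 and 10744 bases of exon have the longest exon sequence among the members. It was -0.56 for Itgam, with 5024 bases, -0.36 for Itgae, -0.33 for Itgax and between -0.19 and 0.24 for the other members. Heart muscle genes were also present in part of the mature group. The summed FPKM of 16 heart muscle markers was 2.37, 2.83 and 3.01 in immature replicates 1 to 3, 13.3 in mature replicate 1, and 317, 336 and 316 in mature replicates 2 to 4. Their most abundant gene was Mb, and all 16 were higher in mature BMDCs by the study's criteria. In mature replicate 1, most of the sum came from Tnni3, at 11.18 FPKM, while Mb was at 0.18 FPKM. With mature replicate 1 as the only mature library, 7 members passed the criteria, but Itgae was lost and Itga4 gained (log2 fold change 1.16, edgeR adjusted p = 1.7e-04). Without mature replicate 3 the number was 8, with Itga4 added.

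The label of the cells was checked against marker genes. The summed FPKM of 14 dendritic cell markers was 4290.3, 4403 and 4432 in the immature and 7165, 6737, 8836 and 6972 in the mature libraries, led by Cd74, which itself did not pass the test (edgeR adjusted p = 0.0542). By the criteria 7 of the 14 were higher and 3 lower in mature BMDCs. Those lower were Sirpa (136 to 56.3 FPKM on average), Clec9a (1.16 to 0.273 FPKM) and Cd209a (0.290 to 0.0250 FPKM), all known from subsets of dendritic cells. Cd80 and Cd86 were among the 7 that were higher, and elsewhere in the study mature dendritic cells are gated by both proteins, so a part of the sort in their levels was not tested. Zbtb46, a transcription factor of conventional dendritic cells, was at 2.64 FPKM in immature and 11.8 FPKM in mature BMDCs on average. Flt3, the receptor of a dendritic cell growth factor, was near 0 in the immature group, at 0.0600 FPKM on average, and at 0.915 FPKM in the mature group. The summed FPKM of 10 macrophage markers was 1003, 1012 and 978 in the immature and 189.6, 191, 209.6 and 195 in the mature libraries, and 10 of 10 were lower in mature BMDCs by the criteria. Cd68 was their most abundant gene and none was at the floor of 3 counts or fewer in every library. In bulk RNA, fewer cells of a type and less RNA per cell cannot be told apart. The macrophage markers moved in the same direction as Itgam, Itgb2, Itgal, Itgb7 and Itgb5, and their part in the falls of these chains was not tested.

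Itgam encodes CD11b (αM), which with β2 forms complement receptor 3, a receptor for opsonized particles and ICAM-1. It lies at chromosome 7 from 128062640 to 128118491 on the plus strand (ENSMUSG00000030786; build GRCm38 here and below). Its CPM was 2462, 2167 and 2468 in immature replicates 1 to 3 and 343, 338, 242 and 389.8 in mature replicates 1 to 4. All 4 mature libraries were far under the lowest immature library, and mature replicate 3 was the lowest. The mean fell from 2366 ± 172 (n = 3) to 328 ± 62.2 CPM (n = 4, mean ± SD), 7.21-fold lower, a log2 fold change of -2.85 with a standard error of 0.16 (adjusted p = 1.8e-06 in edgeR). Among the members, this was the change of largest size. By mean FPKM, Itgam ranked 94 of 28666 genes in immature and 721 in mature BMDCs. A second gene model, Gm49368, overlaps it on the same strand, and 72.4% of the 50-base windows of the longest coding Itgam transcript also occur in it, so the division of reads between them is uncertain. Gm49368 was at 47.8 ± 1.53 (n = 3, immature) and 7.68 ± 2.97 CPM (n = 4, mature; mean ± SD), and thus fell too (log2 fold change -2.64, standard error 0.26, edgeR adjusted p = 5.5e-05).

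Itgax encodes CD11c (αX), the β2 partner most used to mark mouse dendritic cells. Its protein was stained elsewhere in the study, and the text on this sort does not name its markers, so a part of the sort in the level of Itgax was not tested. The gene lies next to Itgam, at chromosome 7 from 128129547 to 128150657 on the plus strand (ENSMUSG00000030789). Itgax was at 1405, 1288 and 1464 CPM in immature replicates 1 to 3 and at 1053, 1093, 874 and 1144 CPM in mature replicates 1 to 4. The groups did not overlap, but the gap between the lowest immature and the highest mature library was small beside that of Itgam. The mean fell from 1386 ± 89.4 (n = 3) to 1041 ± 117 CPM (n = 4, mean ± SD), a log2 fold change of -0.41 with a standard error of 0.11 (adjusted p = 0.0124 in edgeR), which did not meet the fold criterion. Without immature replicate 3 the adjusted p of edgeR's test was 0.0583, at a log2 fold change of -0.37, and the 3 limma settings on FPKM gave adjusted p-values of 0.0677 to 0.138. Of its 50-base windows, 9.61% also occur in the paralog Itgad.

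Itgal encodes CD11a (αL), which with β2 forms LFA-1, the main leukocyte receptor for ICAM-1. It too is on chromosome 7, from 127296260 to 127335138 on the plus strand (ENSMUSG00000030830). Immature replicates 1 to 3 had 159, 147 and 169 CPM of Itgal, and mature replicates 1 to 4 had 52.3, 56.0, 48.0 and 56.2 CPM. Every mature library was lower than every immature library, and both groups were tight. Itgal fell from 158 ± 11.2 (n = 3) to 53.1 ± 3.86 CPM (n = 4, mean ± SD), 2.98-fold, with a log2 fold change of -1.57 with a standard error of 0.089 (adjusted p = 2.1e-06 in edgeR).

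Itgae encodes CD103 (αE), which pairs with β7, binds E-cadherin and marks a subset of dendritic cells of mucosa and tumors. Like CD11c, this protein was stained elsewhere in the study, so a part of the sort in its RNA level was not tested. Itgae lies at chromosome 11 from 73090583 to 73147446 on the plus strand (ENSMUSG00000005947). The gene had only 27, 13 and 22 counts in immature replicates 1 to 3 and 61, 118, 54 and 87 counts in mature replicates 1 to 4. After normalization these were 0.460, 0.234 and 0.341 CPM and 0.925, 1.78, 1.02 and 1.39 CPM. The mature libraries were all higher, with a spread of about the same relative size in both groups, a coefficient of variation of 32.8% in the immature and 30.6% in the mature. Itgae rose from 0.345 ± 0.113 (n = 3) to 1.28 ± 0.391 CPM (n = 4, mean ± SD), a log2 fold change of 1.89 with a standard error of 0.40 (adjusted p = 0.00485 in edgeR). With mature replicate 1 as the only mature library, the log2 fold change was 1.44 and the adjusted p of edgeR's test 0.115, and this fit assumes that the lone library varies like the immature ones. Even in mature BMDCs the level was low, at 0.263 ± 0.0914 FPKM (SD, n = 4). Haspin lies on the opposite strand within the span of Itgae and had 261 to 478 counts per library. The counting is not stated to use strand, and the division of reads between the pair was not tested. Of the 50-base windows of the longest coding Itgae transcript, 0% also occur in another gene. Haspin had a log2 fold change of -0.47 (edgeR adjusted p = 0.0228).

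Itga4 encodes CD49d (α4), which pairs with β1 or β7 and binds VCAM-1, MAdCAM-1 and fibronectin. It lies at chromosome 2 from 79255426 to 79333123 on the plus strand (ENSMUSG00000027009). Its CPM was 129.7, 101 and 101 in immature replicates 1 to 3, and 242, 230.0, 117 and 213 in mature replicates 1 to 4. Mature replicates 1, 2 and 4 were above all immature libraries, but mature replicate 3 lay within the immature range, so the groups overlapped. Itga4 rose from 110.5 ± 16.6 (n = 3) to 201 ± 57.0 CPM (n = 4, mean ± SD), a log2 fold change of 0.86 with a standard error of 0.24 (adjusted p = 0.0167 in edgeR). Without mature replicate 3 it was 1.07 with a standard error of 0.10 (adjusted p = 1.4e-05 in edgeR), past the study's criteria. With an offset for gene length in each library it was 0.65 with a standard error of 0.17 (adjusted p = 0.00988 in edgeR). The call was lost without immature replicate 2 or 3, where the adjusted p of edgeR's test was 0.0698 and 0.0687. Cerkl, on the opposite strand of this locus, had 79 to 119 counts per library against 5593 to 15995 of Itga4.

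Itgav encodes CD51 (αv), a partner of several beta chains that binds vitronectin and other matrix proteins and helps bind dying cells. The gene lies on the same chromosome as Itga4, from 83724397 to 83806916 on the plus strand (ENSMUSG00000027087). Immature replicates 1 to 3 had 58.1, 62.2 and 58.6 CPM of Itgav, and mature replicates 1 to 4 had 80.9, 88.4, 59.7 and 77.0 CPM. As for Itga4, mature replicate 3 lay within the immature range and the other mature libraries above it. The mean rose from 59.6 ± 2.23 (n = 3) to 76.5 ± 12.1 CPM (n = 4, mean ± SD), a log2 fold change of 0.36 with a standard error of 0.13 (adjusted p = 0.0481 in edgeR). This call was close to its threshold and was lost on leaving out any library but mature replicate 3, with edgeR adjusted p-values of 0.0906 to 0.153. With the length offset the log2 fold change was 0.21 with a standard error of 0.083 (adjusted p = 0.0642 in edgeR). Without mature replicate 3 it was 0.49 with a standard error of 0.063 (adjusted p = 1.3e-04 in edgeR).

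Itgb2 encodes CD18 (β2), the shared partner of αL, αM and αX, without which none of them reaches the surface. It lies at chromosome 10 from 77530252 to 77565686 on the plus strand (ENSMUSG00000000290). Immature replicates 1 to 3 held 1872, 1854 and 2025 CPM of Itgb2, and mature replicates 1 to 4 held 426, 448, 419.9 and 542 CPM. The groups were far apart, with mature replicate 4 the highest of its group. Itgb2 fell from 1917 ± 94.0 (n = 3) to 459 ± 56.8 CPM (n = 4, mean ± SD), 4.18-fold lower, a log2 fold change of -2.06 with a standard error of 0.11 (adjusted p = 1.4e-06 in edgeR). It ranked 62 by mean FPKM among 28666 genes in immature and 313 in mature BMDCs.

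Itgb7 encodes β7, the partner of αE and α4. The gene is on chromosome 15, from 102215995 to 102231944 on the minus strand (ENSMUSG00000001281). Its CPM was 420.1, 425 and 405 in immature replicates 1 to 3 and 80.7, 69.2, 92.6 and 86.1 in mature replicates 1 to 4. Here mature replicate 3 was the highest of its group, and the groups did not overlap. Itgb7 fell from 417 ± 10.7 (n = 3) to 82.1 ± 9.90 CPM (n = 4, mean ± SD), 5.07-fold lower, a log2 fold change of -2.34 with a standard error of 0.10 (adjusted p = 7.0e-07 in edgeR). Its direction was thus opposite to that of both its alpha partners, Itgae and Itga4.

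Itgb5 encodes β5, which pairs with αv and binds vitronectin and apoptotic cells. The gene is on chromosome 16, from 33829665 to 33949338 on the plus strand (ENSMUSG00000022817). Itgb5 was at 214, 213 and 215 CPM in immature replicates 1 to 3 and at 67.7, 60.6, 73.6 and 64.3 CPM in mature replicates 1 to 4. The immature libraries were nearly equal, with a coefficient of variation of 0.477%, and all lay above the mature ones. It fell from 214 ± 1.02 (n = 3) to 66.6 ± 5.54 CPM (n = 4, mean ± SD), 3.21-fold lower, a log2 fold change of -1.68 with a standard error of 0.084 (adjusted p = 1.1e-06 in edgeR). Of its 50-base windows, 8.17% also occur in the gene model Gm38317, which had 18 to 108 counts per library against 3893 to 13852 of Itgb5.

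Icam1 encodes CD54, the cell surface ligand of LFA-1 and complement receptor 3. Its gene is on chromosome 9, from 21015985 to 21028817 on the plus strand (ENSMUSG00000037405). Icam1 was at 145, 140.4 and 149 CPM in immature replicates 1 to 3 and at 491, 499.9, 482 and 496 CPM in mature replicates 1 to 4. Both groups were narrow and did not overlap, the mature libraries being higher. Icam1 rose from 145 ± 4.40 (n = 3) to 492 ± 7.66 CPM (n = 4, mean ± SD), 3.40-fold higher, a log2 fold change of 1.76 with a standard error of 0.072 (adjusted p = 4.9e-07 in edgeR). The coefficient of variation in the mature group was 1.56%, the smallest among the members, beside 28.4% for Itga4 and 30.6% for Itgae. By mean FPKM, it ranked 1505 of 28666 genes in immature and 423 in mature BMDCs. Gm47079, on the opposite strand, had 5 to 23 counts per library.

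In immature BMDCs, the order of mean FPKM was Itgb2 (552 ± 13.9), Itgam (413 ± 24.8), Itgax (253 ± 11.5), Itgb7 (132 ± 6.49), Itgb5 (52.8 ± 1.03), Icam1 (29.2 ± 0.333), Itgal (21.1 ± 1.05), Itga4 (6.95 ± 1.11), Itgav (4.87 ± 0.267) and Itgae (0.0633 ± 0.0252), each as mean and SD of n = 3. No neighbours in this order overlapped in their libraries. In mature BMDCs it was Itgax (206 ± 30.8), Itgb2 (143 ± 20.3), Icam1 (107 ± 6.49), Itgam (62.2 ± 13.6), Itgb7 (28.0 ± 2.35), Itgb5 (17.7 ± 0.784), Itga4 (13.7 ± 4.31), Itgal (7.67 ± 0.865), Itgav (6.78 ± 1.35) and Itgae (0.263 ± 0.0914), with n = 4. The pairs Itgax and Itgb2, Itga4 and Itgal, and Itgal and Itgav overlapped in their libraries, and other neighbours did not. Itgam thus held the second place in immature and the fourth in mature cells, and Icam1 moved from the sixth to the third. FPKM is per length of all exons, which is longer than the longest coding transcript for all 10 members, by most for Itga4, Itgav and Icam1. Per kb of the longest coding transcript, Icam1 was at 57.2 ± 1.74 (n = 3, immature) and 194 ± 3.02 CPM (n = 4, mature; mean ± SD), above the 155 ± 19.1 CPM per kb (SD, n = 4) of Itgb2 in the latter. On that scale Itga4 (20.5 ± 5.83, SD, n = 4) and Itgb5 (20.3 ± 1.69) also changed places in mature BMDCs, as did Itgav (10.8 ± 1.72) and Itgal (10.2 ± 0.739), and each of these differences was smaller than the SDs. The immature order was the same on both scales.

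The balance among the alpha chains that pair with β2 was described by FPKM shares, with no test. Itgam made up 60.7%, 59.7% and 59.8% of the summed FPKM of Itgal, Itgam, Itgax and Itgad in immature replicates 1 to 3, and 23.1%, 22.2%, 20.2% and 23.9% in mature replicates 1 to 4. The share of Itgax was 36.2%, 37.1% and 37.1% in immature and 74.1%, 75.0%, 76.6% and 73.4% in mature libraries. Itgam was the main β2 partner by RNA in all 3 immature libraries, and Itgax in all 4 mature ones. The share of Itgal was 3.00% to 3.13% in immature and 2.63% to 3.07% in mature libraries, and the groups overlapped. Itgad, a further β2 partner of macrophages, made up at most 0.175%. The sum of these alpha chains over Itgb2 was 1.32, 1.19 and 1.24 in immature and 2.12, 2.07, 1.73 and 1.83 in mature libraries, so the alpha chains fell less than their partner as a sum.

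**Figure D2:**
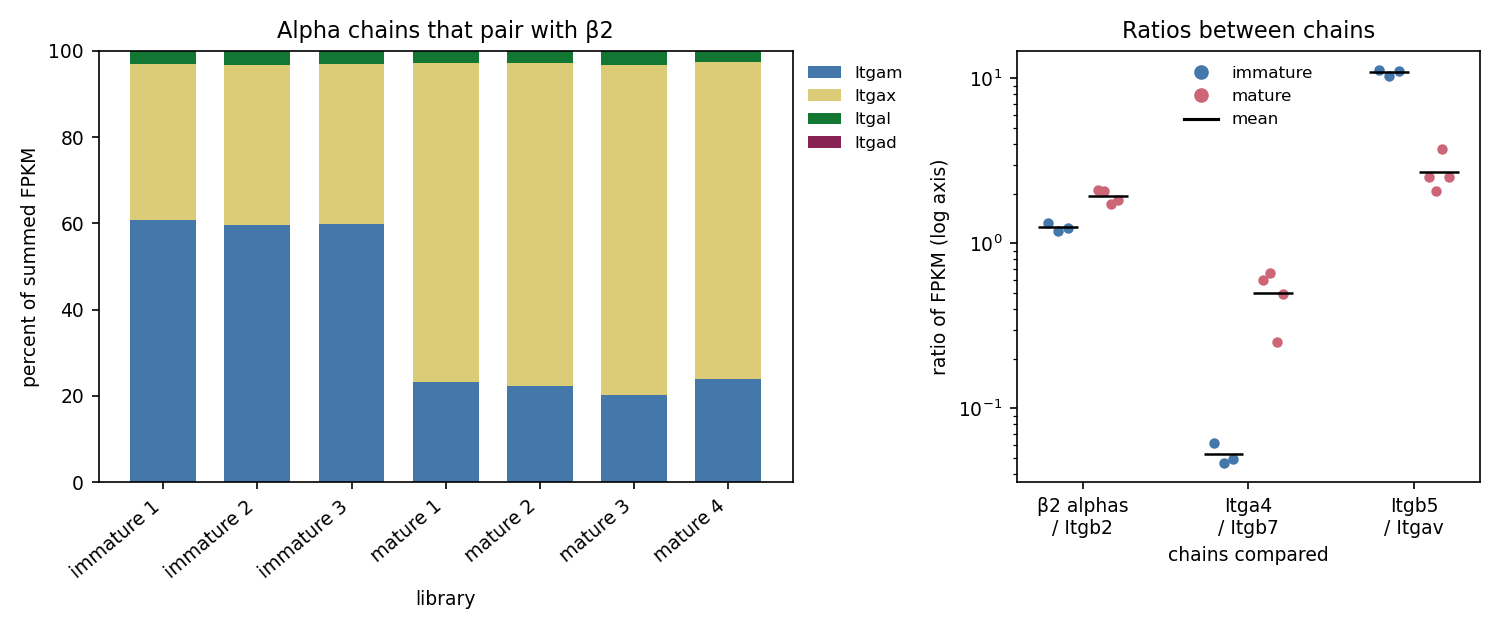
Left, share of each alpha chain in the summed FPKM of the chains that pair with β2, per library. Right, per-library FPKM ratios between chains (log axis) with group means (n = 3 immature, n = 4 mature). Itgam leads in immature and Itgax in mature libraries, and no ratio on the right overlaps between the groups.

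The other pairs were set side by side in the same way. The FPKM ratio of Itga4 to Itgb7 was 0.0612, 0.0468 and 0.0495 in immature replicates 1 to 3 and 0.596, 0.659, 0.251 and 0.490 in mature replicates 1 to 4. All mature libraries were higher, mature replicate 3 least so, and Itgb7 RNA still exceeded Itga4 RNA per length in each library. The FPKM ratio of Itgae to Itgb7 was at most 6.7e-04 in immature and 0.00643 to 0.0154 in mature libraries, and rests on the few counts of Itgae. The FPKM ratio of Itgb5 to Itgav was 11.2, 10.4 and 11.1 in immature and 2.53, 2.07, 3.73 and 2.53 in mature libraries. The excess of Itgb5 over its alpha partner was thus smaller in every mature library.

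Promoter sequences from RefSeq (build GRCm38.p6) were given for 7 of the 10 members, and those of Itgb2, Itgae and Itgal were not used here. They were searched on both strands, from 250 bases before to 50 bases after the RefSeq start, for GGANNTTCC (a κB motif of NF-κB), TTCNNNGAA (STAT), TGANTCA (AP-1) and GAGGAAGT (PU.1). Among 32851 promoters of the same length, 4.26% held the κB letters, 8.30% the STAT letters, 7.81% the AP-1 letters and 3.20% the PU.1 letters. Icam1 held the κB letters at chr9:21015787-21015795, 153 bases before its start, and the STAT letters at chr9:21015898-21015906, 42 bases before it. Itgax held the AP-1 letters at chr7:128129494-128129500, 56 bases before its start. The PU.1 letters, as ACTTCCTC, were found in Itgav at chr2:83724388-83724395 and in Itgb7 at chr15:102231928-102231935. No match of a motif overlapped another, and Itgam, Itga4 and Itgb5 held none of these letters in this window. A match describes the letters only. The 250 bases before the start are shown for Icam1, which rose, and for the neighbouring genes Itgam and Itgax, which fell by different amounts, with matches in capitals. All are on the plus strand, at chr9:21015690-21015939 for Icam1, chr7:128062390-128062639 for Itgam and chr7:128129300-128129549 for Itgax.
Icam1: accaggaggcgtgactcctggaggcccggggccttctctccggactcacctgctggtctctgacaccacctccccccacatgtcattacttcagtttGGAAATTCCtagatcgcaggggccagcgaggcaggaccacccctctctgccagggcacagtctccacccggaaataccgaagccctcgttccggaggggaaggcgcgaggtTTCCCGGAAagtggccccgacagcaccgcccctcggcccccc
Itgam: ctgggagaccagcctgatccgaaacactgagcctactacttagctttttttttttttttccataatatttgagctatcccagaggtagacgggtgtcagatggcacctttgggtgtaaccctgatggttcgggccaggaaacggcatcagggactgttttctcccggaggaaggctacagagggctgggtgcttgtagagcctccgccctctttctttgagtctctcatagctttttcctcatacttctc
Itgax: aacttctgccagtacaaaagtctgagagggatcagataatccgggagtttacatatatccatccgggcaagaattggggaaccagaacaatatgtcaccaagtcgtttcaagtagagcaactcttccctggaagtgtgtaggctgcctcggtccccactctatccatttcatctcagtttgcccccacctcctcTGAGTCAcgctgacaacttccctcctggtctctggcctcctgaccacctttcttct

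The remaining integrin chains were examined as a list of 18 genes, of which 16 were tested. By adjusted p, 7 rose (43.8%, beside 23.2% of all tested genes), 2 fell (12.5%, beside 22.9%) and 7 did not pass. The median log2 fold change was 0.70, beside 0.05 for all tested genes. Apart from Itgb2l, the chains above this median were low, at most 0.448 FPKM on average in mature cells (Itga10). Among these low chains, Itga2, Itga9, Itgb4 and Itgb6 did not pass the test. With mature replicate 1 as the only mature library, 14 genes of the list were tested and their median log2 fold change was 0.44. Itgb1, a partner of α4 and αv, was at 132 ± 4.17 (n = 3, immature) and 194 ± 27.8 FPKM (n = 4, mature, mean ± SD). By CPM it rose from 613 ± 19.2 (n = 3) to 834 ± 88.1 (n = 4, mean ± SD). The log2 fold change was 0.44 with a standard error of 0.10 (adjusted p = 0.00637 in edgeR). In immature cells the FPKM of Itgb1 was close to that of Itgb7, the other partner of α4, and in mature cells it was far above it. Itga6, a laminin receptor chain, rose (log2 fold change 0.54, edgeR adjusted p = 0.0263), but mature replicate 3 lay within the immature range. Itga5, the fibronectin receptor chain, was at 28.2 ± 1.93 FPKM (SD, n = 3) and 26.7 ± 2.40 FPKM (SD, n = 4). Itgb2l, a paralog of Itgb2, rose from 4.72 ± 0.364 (n = 3) to 27.9 ± 2.60 CPM (n = 4, mean ± SD), a log2 fold change of 2.56 (edgeR adjusted p = 9.2e-07), opposite to Itgb2. It remained under Itgb2 in level, at 6.12 ± 0.821 FPKM (SD, n = 4) in mature cells. Itgb8, a partner of αv that activates TGF-β, passed the test (edgeR adjusted p = 0.0362) on 6, 0 and 4 counts in immature and 7, 58, 23 and 31 counts in mature replicates 1 to 4. Itga7, a chain of muscle integrins named after its values were seen, had 23, 20 and 21 counts in immature and 23, 147, 137 and 202 counts in mature replicates 1 to 4. Both genes had their high counts in the libraries with heart muscle RNA, whose part in these rises was not tested.

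Of 21 integrin ligands other than Icam1, 17 were tested; 4 rose (23.5%, beside 23.2% of all tested genes) and 9 fell (52.9%, beside 22.9%) by adjusted p, with a median log2 fold change of -0.39. Thbs1, a matrix protein bound by αv integrins, fell from 4183 ± 284 (n = 3) to 588 ± 115 CPM (n = 4, mean ± SD). Its log2 fold change was -2.83 with a standard error of 0.15 (adjusted p = 1.5e-06 in edgeR). Spp1, osteopontin, a ligand of αv and α4 chains, fell from 682 ± 21.3 (n = 3) to 195 ± 31.6 CPM (n = 4, mean ± SD). Its log2 fold change was -1.81 (edgeR adjusted p = 7.1e-06). Fibronectin (Fn1) fell as well, with a log2 fold change of -3.62 (edgeR adjusted p = 3.6e-06). C3, whose fragment is bound by complement receptor 3, fell less, with a log2 fold change of -0.44 (edgeR adjusted p = 0.00955). Icam4 rose on 3 to 8 counts in immature and 20 to 73 counts in mature libraries (edgeR adjusted p = 0.00879), so the rise of Icam1 was the one at a high level among the ICAM genes examined. Icam2, named here after its values were seen, fell from 11.1 ± 1.37 (n = 3) to 2.50 ± 0.297 CPM (n = 4, mean ± SD). Its log2 fold change was -2.15 (edgeR adjusted p = 1.0e-05). Cdh1, the E-cadherin bound by αE and likewise named after its values were seen, was at 10.6 ± 0.597 FPKM (SD, n = 3) and 10.7 ± 0.916 FPKM (SD, n = 4) and did not pass the test.

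**Figure D3:**
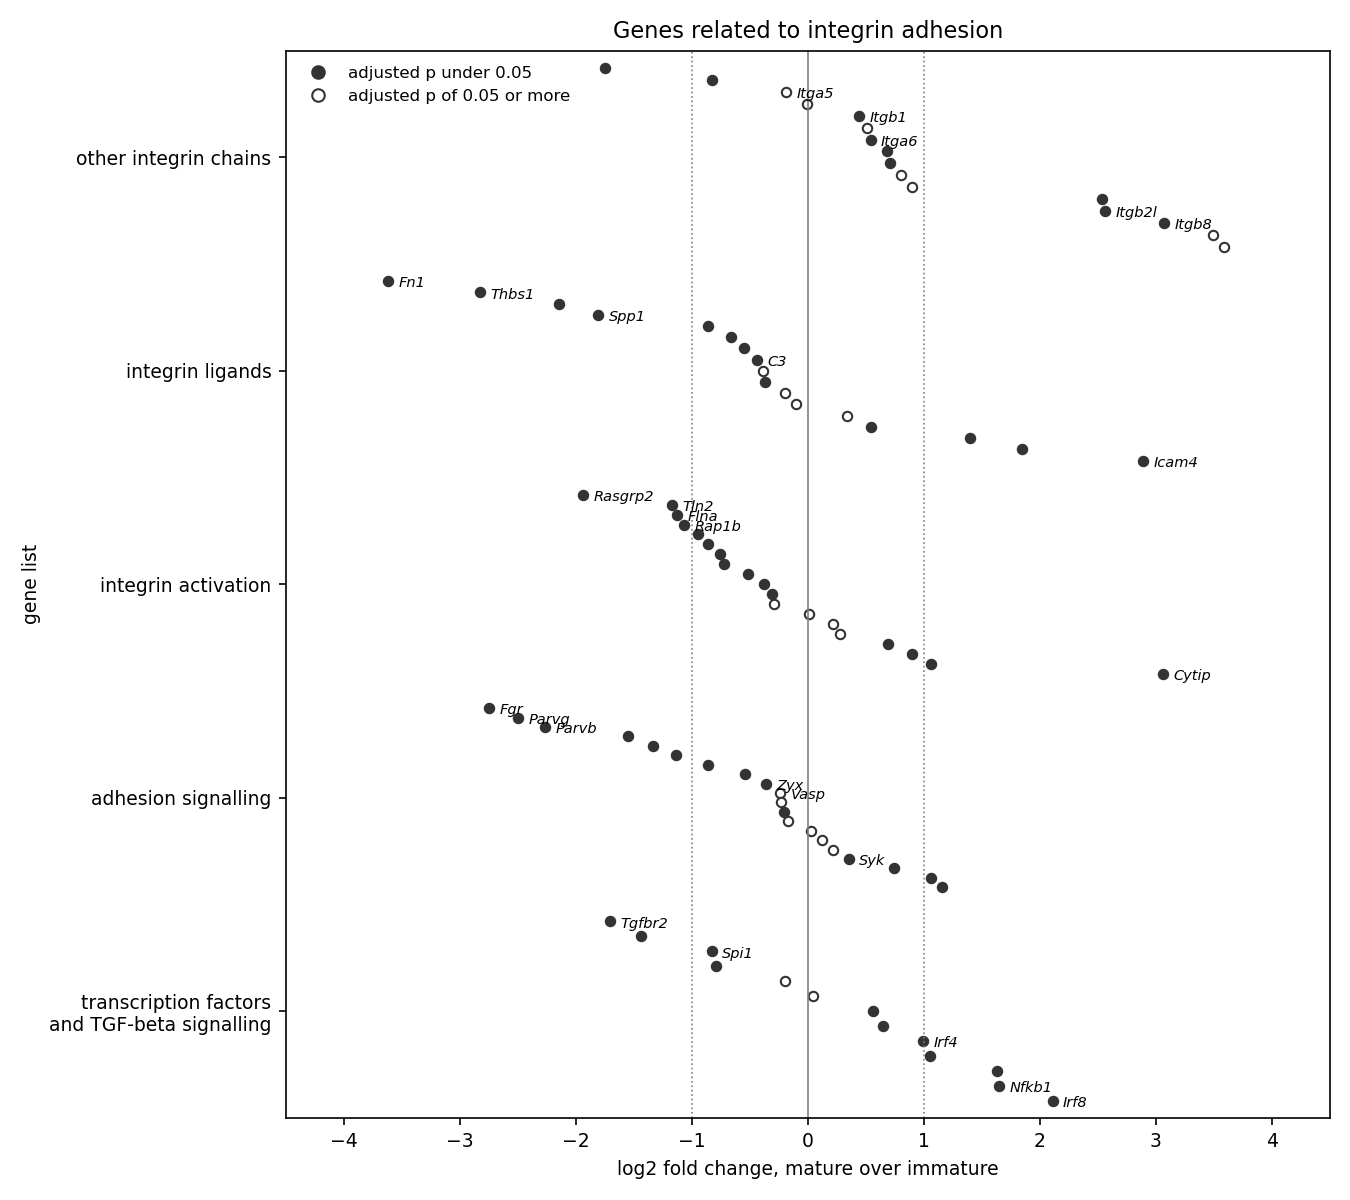
Log2 fold changes (mature over immature, edgeR) of the tested genes of 5 lists related to integrin adhesion, 1 point per gene, with the genes named by rule labelled and dotted lines at the fold criterion. Ligand, activation and signalling genes lie more often on the lower side, and Cytip stands far to the right of the activation genes.

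Of 19 genes of integrin activation, which switch integrins between low and high affinity, 4 rose (21.1%) and 11 fell (57.9%) by adjusted p, beside the same 23.2% and 22.9% of all tested genes, with a median log2 fold change of -0.38. Cytip, which holds cytohesin 1 away from β2 integrins and so limits LFA-1 adhesion, rose from 161 ± 6.17 (n = 3) to 1339.9 ± 19.3 CPM (n = 4, mean ± SD), a log2 fold change of 3.06 with a standard error of 0.079 (adjusted p = 1.3e-07 in edgeR). Cyth1, cytohesin 1 itself, named after its values were seen, also rose, from 167 ± 6.98 (n = 3) to 349 ± 5.85 CPM (n = 4, mean ± SD), a log2 fold change of 1.06 (edgeR adjusted p = 5.4e-06). Rap1b, the small GTPase that drives inside-out activation, fell from 718 ± 15.2 (n = 3) to 342 ± 18.5 CPM (n = 4, mean ± SD), a log2 fold change of -1.07 (edgeR adjusted p = 7.1e-06). Rasgrp2, an exchange factor of Rap1, fell at a low level (log2 fold change -1.94, edgeR adjusted p = 3.2e-04). Flna, a filamin that binds beta chain tails, fell (log2 fold change -1.13, edgeR adjusted p = 3.6e-04). The talin gene Tln2 also fell (log2 fold change -1.17, edgeR adjusted p = 0.0150). Its level was low, at 0.423 FPKM in immature and 0.205 FPKM in mature cells on average. Tln1, the other talin gene of the list, named after its values were seen, was at 73.1 and 41.0 FPKM. By adjusted p it fell as well (log2 fold change -0.95, edgeR adjusted p = 2.4e-04), short of the fold criterion.

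Among 20 genes of adhesion signalling, 4 rose (20%, beside 23.2% of all tested genes) and 10 fell (50.0%, beside 22.9%) by adjusted p, with a median log2 fold change of -0.23. Fgr, a Src family kinase downstream of β2 integrins in myeloid cells, fell (log2 fold change -2.75, edgeR adjusted p = 4.1e-07), as did Parvg (log2 fold change -2.50, edgeR adjusted p = 1.1e-06) and Parvb (log2 fold change -2.27, edgeR adjusted p = 5.9e-07), parvins of focal adhesions. Syk rose (log2 fold change 0.35, edgeR adjusted p = 0.0143) and Zyx fell (log2 fold change -0.36, edgeR adjusted p = 0.0169), while Vasp had a log2 fold change of -0.24 that did not pass (edgeR adjusted p = 0.130). Among 13 transcription factors and TGF-β signalling genes, 7 rose (53.8%, beside 23.2%) and 4 fell (30.8%, beside 22.9%), with a median log2 fold change of 0.56. Spi1, which encodes PU.1, a factor known to act on Itgam and Itgb2, fell from 264 ± 5.33 (n = 3) to 149 ± 27.2 CPM (n = 4, mean ± SD), a log2 fold change of -0.83 (edgeR adjusted p = 9.0e-04). Irf8 rose (log2 fold change 2.11, edgeR adjusted p = 4.4e-07), as did Irf4 (log2 fold change 0.99, edgeR adjusted p = 7.8e-05) and Nfkb1 (log2 fold change 1.65, edgeR adjusted p = 3.3e-06), while Tgfbr2, a receptor for TGF-β, which is known to induce CD103, fell (log2 fold change -1.71, edgeR adjusted p = 5.6e-06). Each of these 5 list medians kept its sign under DESeq2, other scaling factors and the length offset. The macrophage markers were also lower in mature BMDCs, and their part in the falls within the ligand, activation and signalling lists was not tested.

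Across the 7 libraries and 4176 genes with a mean FPKM of at least 10, genes with a pattern among the closest to Itgam by Pearson's r of log2 CPM included Lyn (r = 0.9996) and Rbms1 (r = 0.9994). Those closest to Itgb7 were Derl1 (r = 0.9995), Lamp1 (r = 0.9994) and Cyb5r1 (r = 0.9994). Over these libraries r mostly reflects the difference between the groups, and 234 genes had an r over 0.99 with Itgam and 305 with Itgb7. No p is given.

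Markers of further cell types were mostly low but differed between the groups for several lists. The summed FPKM of mast cell and basophil markers, led by Kit, was 1.08 to 1.30 in immature and 4.55 to 6.34 in mature libraries. Of the 5 tested, Kit and Hdc were higher by the criteria, Gata2 passed the test with a log2 fold change of 0.89, and Cpa3 and Ms4a2 did not pass it. For Hdc, mature replicate 1 lay within the immature range, and the high values were in mature replicates 2 to 4. The sum of NK cell markers was 2.44 to 3.68 and 4.10 to 7.48, and of the 6 tested only Klrk1 passed the criteria, while their most abundant gene, Gzma, did not pass the test. T cell markers summed to 2.77 to 3.07 and 1.13 to 1.56 FPKM, where Cd28 was lower and Bcl11b higher by the criteria and the other 7 tested did not pass. The sum was 4.10 to 5.90 and 1.96 to 3.76 for neutrophil, and 0.0600 to 0.210 and 0.410 to 0.760 for B cell markers, with 2 of 5 tested lower and 1 of 3 tested higher by the criteria. That B cell gene, Ebf1, had no count in the immature libraries or in mature replicate 1. Epithelial or MC38 markers summed to 6.22 to 11.5 and 4.25 to 11.9 FPKM, where Epcam and Krt7 were higher by the criteria and the other 3 tested did not pass. Fibroblast markers summed to 1.84 to 2.98 and 3.92 to 5.35 FPKM. Of the 10 tested, Dcn, Lum and Col1a2 were higher by the criteria, and all 3 had their high values in mature replicates 2 to 4, the libraries with heart muscle RNA. Col1a1 and Col3a1 did not pass the test. Endothelial markers were at 4.91 to 5.26 FPKM in immature libraries and at 3.07, 6.83, 5.77 and 6.43 FPKM in mature replicates 1 to 4. By the criteria 6 of these 10 were higher in mature BMDCs, some of them, such as Tek and Cldn5, with no count in mature replicate 1. Pecam1, their most abundant gene, fell (log2 fold change -0.62, edgeR adjusted p = 0.00908), and Kdr, Erg and Egfl7 did not pass. A part of these cell types in the changes of the members was not tested. The megakaryocyte and platelet list, led by Pf4, was at 112, 136 and 125 in immature and 22.3, 36.7, 45.4 and 37.0 in mature libraries. Of the 6 tested, Pf4, Ppbp and Vwf were lower by the criteria, and Itga2b, Gp1ba and Treml1 did not pass. A part of this list in the falls of Itgam, Itgb2 and Itgb7 was not tested.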

How the data were processed

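RNA of 3 immature and 4 mature BMDC libraries was compared, with groups and replicate numbers from the sample labels. The protocol in the labels describes poly(A) selection, a dUTP strand-marked library and paired-end sequencing. The submitters' notes name cutadapt 1.9, HISAT2 2.2.1, StringTie 2.1.6, DESeq2 and edgeR. They name build mm9, yet of 28588 gene IDs found in GENCODE M21 (GRCm38), 87.2% have the same coordinates there, so GRCm38 was used. The counting program and its strand setting are not given in the sources used here.

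The deposited table holds raw counts, whole numbers per gene, and FPKM values, which the authors scaled by exon length and library size. Counts of 4 and 8 were more frequent than neighbouring values (in immature replicate 1, 961 genes had 4 counts, 509 had 3 and 288 had 5), so 1 fragment may add several counts, which was not tested.

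Counts were tested in R 4.3.3 with edgeR 4.0.16 (its low-count filter, TMM, quasi-likelihood test, group only, Benjamini-Hochberg over 17461 genes). The standard error is the log2 fold change over the square root of F. The members and lists were chosen with earlier results of these data known. Named list genes are the 3 with the highest mean FPKM and up to 3 with the largest change past the criteria without overlap. Correlations were ranked for the 2 members of largest change. A gene that this ranking names is not reported here. Alternatives were DESeq2 1.42.0, limma 3.58.1 on log2(FPKM + 1) and log2(FPKM + 0.1), other scaling factors and filters, a length offset, libraries left out, and a replicate block. Counts divided by 4 and Gm49368 added to Itgam were chosen after seeing the data. On simulated counts with genes changed 4-fold, edgeR recovered 200 of 200, DESeq2 200 of 200 and limma on FPKM 162 of 173. Their false calls numbered 2, 0 and 0. The simulation used the same spread setting for every gene, no length trend, and changed only genes above a count floor. Far fewer genes were changed than in the data, so recovery for these libraries and for genes of few counts was not tested. Python 3.11.15, pandas 2.3.3, numpy 2.4.6 and matplotlib 3.10.9 were used.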

Additional observations from a re-analysis of the deposited data

How the results depend on the processing

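Of 188 member log2 fold changes under alternatives, 170 kept their direction and side of the adjusted p threshold, 18 lost the call and 0 reversed. Itgal, Itgam, Itgb2, Itgb7, Itgb5 and Icam1 kept the call and a log2 fold change of at least 1 in size in all 19. Itgav lost its call in 10 of 19 (adjusted p 1.3e-04 to 0.153), Itgax in 4 of 19 (0.00163 to 0.138), Itga4 in 3 of 19 (1.4e-05 to 0.0698) and Itgae in 1 of 17 (1.2e-04 to 0.115), each over edgeR, DESeq2 and limma. Itgae was left out by the FPKM filter of 2 limma settings, and on log2(FPKM + 1) without a filter its log2 fold change was 0.25, since the pseudocount shrinks low genes. The number of members past the criteria was 7, but 6 under the 3 limma settings, and 8 without mature replicate 3 or without mature replicates 1 and 3. It was 7 to 8 with single libraries left out. By adjusted p it was 7 to 10.

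All genes past the criteria numbered 4037, and 1768 with limma on log2(FPKM + 1), 2561 on log2(FPKM + 0.1) and 1716 on log2(FPKM + 1) without a filter; the cause was not tested. They numbered 3646 to 4052 with single libraries left out. The median log2 fold change of all genes shifted by 0.13 with DESeq2, 0.11 with upper-quartile factors, 0.12 without a filter and -0.15 with the length offset.

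Same-numbered libraries did not deviate together (r = 0.029, -0.001 and 0.014), so the numbers were not taken as pairs, and mature replicate 4 has no partner. With the replicate block, 3616 genes and 7 members passed the criteria, and Itgav had an edgeR adjusted p of 0.103.

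Per kb of coding transcript, the Itgal share did not overlap between groups, and the Itgax share was 1.96 times higher in mature cells instead of 2.03. Among the members, counts were lowest for Itgae, at 13 to 118 per library.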
